A study of Mus musculus with 15 samples.

Results

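The Serpin genes described here are 33 genes whose symbol starts with Serpin, chosen by that symbol from the 15701 genes with values in either of 2 RNA-Seq datasets of NMuMG cells, a mouse mammary gland epithelial line. The second dataset held values for 32 of them and the first for 18, with 17 in both, and GENCODE M21 lists 61 protein-coding Serpin genes. The letter after Serpin names the clade, and the members comprised 8 genes of clade A, 18 of clade B, 2 of clade F and 1 each of clades C, D, G, H and I.

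The second dataset compared 2 libraries of control NMuMG cells with 2 libraries of shPCBP1 cells, in which a short hairpin RNA (shRNA) lowers the RNA-binding protein PCBP1. The labels describe the controls as untreated NMuMG, whereas the study's text calls its control cells shSCR (a scrambled shRNA). If they were untreated, viral delivery of the shRNA and drug selection cannot be told apart from the knockdown in this comparison. In the first dataset every line carried the PCBP1 knockdown: the unaltered shPCBP1 line, shPCBP1 CT clones 1 to 3 (given Cas9 without guide RNAs), FAM3C KO clones 1 to 3, LIFR KO clones 1 to 3 and 1 FAM3C/LIFR double KO line. The knockout lines are single-cell clones in which paired guide RNAs excised a coding fragment of Fam3c, a secreted cytokine gene, or of Lifr, the receptor of leukemia inhibitory factor, and each line gave 1 RNA sample, so differences between lines include clonal differences. Nothing says that the libraries of the second dataset came from separate cultures, so their p values measure only the spread between these samples, which may be technical.

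Serpins are protease inhibitors that act as bait. The protease cuts an exposed loop of the serpin, which then changes shape and traps the enzyme in a covalent complex. Clade A members such as alpha-1-antitrypsin (Serpina1a to Serpina1e in the mouse) are secreted mostly by the liver and restrain neutrophil elastase, whereas clade B members stay inside the cell and restrain cathepsins, granzymes and other proteases that leak there. Serpinh1 (Hsp47) inhibits no protease and is the collagen chaperone of the endoplasmic reticulum.

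Values are normalised CPM (read counts scaled to a common library total), and the value of 1 read implied totals of 53033517 to 56497175 reads per library in the second dataset and 16031859 to 46901675 reads per line in the first. Intervals of counting error are therefore wider for the lowest genes, where 1 read equals 0.0177 to 0.0189 CPM in the second dataset and 0.0213 to 0.0624 CPM in the first. Pcbp1, the knockdown target, was at 287 and 312 CPM in control libraries against 14.1 and 14.2 CPM in shPCBP1. In the first dataset it was at 32.9 to 37.1 CPM in the shPCBP1 lines and 33.6 to 36.0 CPM in the FAM3C KO clones. LIFR KO clones 1 to 3 had 39.5, 22.5 and 19.9 CPM of Pcbp1 and the double KO 20.6 CPM. Fam3c ranged from 26.4 to 42.9 CPM in FAM3C KO clones (shPCBP1 lines 47.0 to 59.4 CPM) and Lifr from 14.6 to 34.9 CPM in LIFR KO clones (shPCBP1 lines 25.8 to 40.2 CPM), so the groups overlapped for Lifr. The FAM3C KO clones had less Lifr (10.5 to 19.2 CPM) than 2 of the 3 LIFR KO clones. The study itself reports lower LIFR RNA and protein after FAM3C KO, and lines are named throughout as they are labelled. A gene-level count also takes reads from outside the excised fragment, and it is no check of that deletion. The study screened its clones by PCR and then by immunoblot for KO of the target. LIFR KO clones 2 and 3 and the double KO stood apart in GC content (Spearman correlation across 12581 genes of -0.758, -0.745 and -0.704 between a gene's GC content and the line's deviation from the shPCBP1 mean, against -0.288 to 0.241 in the other lines).

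The promoters of the Serpina1 genes and of Serpinh1 are shown because these genes had the largest decreases and the largest increase among the members. Of the 33 members, 30 had a promoter in the RefSeq table of GRCm38.p6 (250 bases before to 50 after the start). All 5 Serpina1 promoters held GTTAAT, a core of sites of hepatocyte nuclear factor 1, at 16 to 78 bases before the start. These letters, sought on both strands, occurred in 7 of the 30 member promoters and in 7.1% of 32851 promoters of the same length. The stretches below run 5′ to 3′ on the minus strand of chromosome 12 and each holds 90 bases, with GTTAAT in capitals.

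Serpina1a: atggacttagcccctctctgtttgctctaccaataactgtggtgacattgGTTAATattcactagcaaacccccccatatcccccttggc
Serpina1b: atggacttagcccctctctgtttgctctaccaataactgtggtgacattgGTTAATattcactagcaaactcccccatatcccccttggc
Serpina1c: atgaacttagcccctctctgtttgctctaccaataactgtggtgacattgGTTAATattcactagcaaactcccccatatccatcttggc
Serpina1d: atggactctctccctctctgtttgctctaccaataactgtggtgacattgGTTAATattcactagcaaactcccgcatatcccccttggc
Serpina1e: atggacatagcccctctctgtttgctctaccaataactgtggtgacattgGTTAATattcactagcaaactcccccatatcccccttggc

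In the order printed they lie at chr12:103863601-103863690 (Serpina1a), chr12:103738176-103738265 (Serpina1b), chr12:103904938-103905027 (Serpina1c), chr12:103773610-103773699 (Serpina1d) and chr12:103956936-103957025 (Serpina1e). The other 4 stretches differed from that of Serpina1b at 1 to 5 of 90 positions. Over the full 300 bases Serpina1a to Serpina1d were 85.2% to 91.4% identical to each other, and Serpina1e, whose annotated start lies further from the shared stretch, was 63.9% to 69.3% identical to them. The 250 bases before the start of Serpinh1 lie at chr7:99353240-99353489 on the minus strand. TGTCTG, the reverse complement of the SMAD site letters CAGACA, is in capitals at 213 bases before the start, and these letters occurred on either strand in 7 of 30 member promoters and 21% of all promoters.

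Serpinh1: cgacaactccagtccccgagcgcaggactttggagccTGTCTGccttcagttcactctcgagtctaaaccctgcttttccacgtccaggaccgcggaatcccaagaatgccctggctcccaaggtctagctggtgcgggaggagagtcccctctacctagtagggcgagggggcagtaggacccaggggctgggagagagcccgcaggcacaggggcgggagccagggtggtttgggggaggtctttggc

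The 300-base Serpinh1 promoter held 16 CpG sites and that of Serpinb6a 25, whereas those of Serpina1a to Serpina1e held 3 to 5, beside a median of 7 over all promoters. The pair GAANNTTC, from the element bound by heat shock factors, did not occur in these letters of the Serpinh1 promoter and occurred in 7.9% of all promoters. Such matches describe the letters and are not evidence of binding.

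Whether loss of PCBP1 altered Serpin genes was examined in the second dataset. Of the 13 Serpin genes averaging 0.5 CPM or more, 11 passed the threshold (limma on log2(CPM + 0.1), Benjamini-Hochberg adjusted p under 0.07), beside 80.1% of all 11384 genes tested. The 5 Serpina1 genes and Serpinf2 fell (6 lower, beside 38.0% of all genes), and Serpinh1, Serpinb9b, Serpinb9, Serpinb6b and Serpinb6a rose (5 higher, beside 42.1%). The share called was thus close to that of all genes. Of the 13 genes, 6 reached the level required for the test only through the group where they were high (Serpina1a, Serpina1c, Serpina1d, Serpina1e and Serpinf2 in the controls, Serpinh1 in shPCBP1), so they had to differ and their counts are a description only. Bulk RNA does not tell fewer expressing cells from less RNA per cell.

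**Figure D1:**
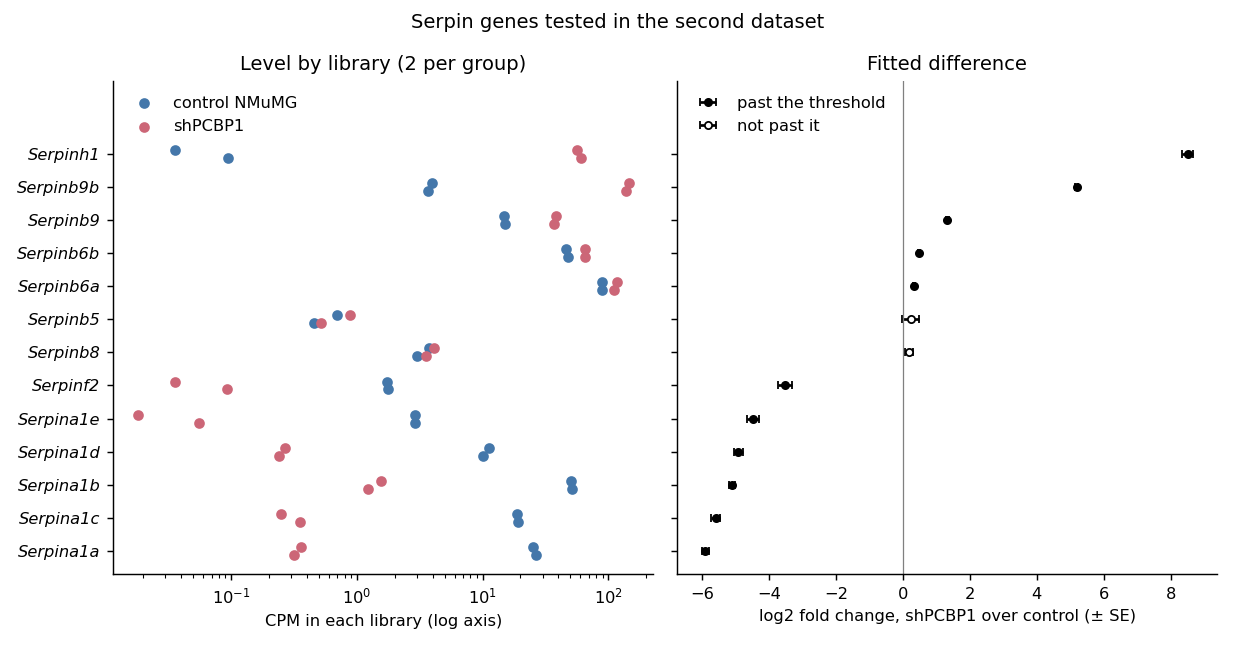
Left, CPM of the 13 tested Serpin genes in each of the 2 control NMuMG and 2 shPCBP1 libraries (log axis). Right, the log2 fold change of log2(CPM + 0.1) with its standard error, filled where the gene passed the threshold. The 5 Serpina1 genes and Serpinf2 sit far left of their controls and Serpinh1 and Serpinb9b far right, whereas the libraries of Serpinb5 and Serpinb8 overlap.

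Alpha-1-antitrypsin transcripts nearly disappeared from the shPCBP1 libraries. Serpina1b, the most abundant of them, had 50.6 and 51.6 CPM in the control libraries against 1.56 and 1.22 CPM in shPCBP1. Serpina1a stood at 25.2 and 26.8 CPM against 0.358 and 0.314 CPM. Serpina1c stood at 18.9 and 19.2 CPM against 0.251 and 0.351 CPM. In each of these genes both control libraries lay above both shPCBP1 libraries by more than an order of magnitude. Serpina1d stood at 11.2 and 10.1 CPM against 0.269 and 0.240 CPM. Serpina1e, the lowest, stood at 2.92 CPM in both controls against 0.018 and 0.0555 CPM, from 4 reads in all. The log2 fold changes were -5.11 ± 0.0993 for Serpina1b, -5.90 ± 0.109 for Serpina1a, -5.59 ± 0.136 for Serpina1c, -4.92 ± 0.130 for Serpina1d and -4.48 ± 0.189 for Serpina1e (SE, n = 2 per group, limma adjusted p from 5.63e-12 to 2.6e-09). All but Serpina1b reached the level required for the test only through the controls, so they had to differ. Their p values are a description only.

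These genes lie next to each other on chromosome 12 of GRCm38, between 103728156 and 104044443 with Serpina9 and Serpina12, and are near-identical copies. Of the 150-base windows of their transcripts, 7.6% (Serpina1e) to 59.7% (Serpina1c) also occurred in another gene, so the division of reads among them is uncertain. Their sum does not depend on it, as far as the reads stayed within the family, and it came to 109 and 111 CPM for the controls against 2.46 and 2.18 CPM for shPCBP1. In the controls the 5 genes made up 40.1% and 40.5% of the summed CPM of the members and in shPCBP1 0.566% and 0.515%. Serpina7, which encodes thyroxine-binding globulin and lies on chromosome X, stood at 0.0355 and 0.0378 CPM against 0.197 and 0.166 CPM, and Serpina9 and Serpina12 did not exceed 0.0944 CPM in any library.

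Other genes known from the liver were measured beside clade A. Ttr, a plasma carrier of thyroid hormone, fell from 2.58 to 0.0455 CPM on average, Apoa1 averaged 0.540 and 0.0368 CPM, and Alb, the defining hepatocyte marker, stood at no more than 0.0755 CPM in any library. Apob went the other way, from 509 to 658 CPM on average (limma adjusted p = 1.84e-08). The 4 markers summed to 512 CPM in both controls and to 653 and 664 CPM in shPCBP1, nearly all of it Apob.

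Serpinf2, alpha-2-antiplasmin and the main plasma inhibitor of plasmin, fell as well. It measured 1.75 CPM in both controls against 0.0359 and 0.0925 CPM in shPCBP1, a log2 fold change of -3.52 ± 0.206 (SE, limma adjusted p = 3.81e-08). Serpinf2 reached the level required for the test only through the controls, so it had to differ and the p value is a description only. Its neighbour on chromosome 11, Serpinf1 (pigment epithelium-derived factor), averaged 0.193 CPM in the controls and 0.454 CPM in shPCBP1 and was below the level required for the test.

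Serpinh1 (ENSMUSG00000070436, chromosome 7 of GRCm38 from 99345376 to 99353239) had the largest increase of all members. It was barely detected in the control libraries, at 0.0355 and 0.0944 CPM, and reached 56.6 and 61.2 CPM in shPCBP1. The log2 fold change was 8.50 ± 0.157 (SE, limma adjusted p = 5.63e-12) on the log2(CPM + 0.1) scale, and the group means differed 907-fold in CPM, with 7 reads in all behind the control mean. Serpinh1 reached the level required for the test only through shPCBP1, so it had to differ and the p value is a description only. Map6, the gene beside it, which encodes a microtubule-stabilising protein, measured 0.885 and 0.867 CPM in the controls against 31.9 and 35.0 CPM in shPCBP1. On the other side, Gdpd5, a phosphodiesterase gene, had 8.55 and 8.62 CPM against 13.8 and 14.5 CPM, and Rps3, a ribosomal protein gene beyond it, 275 and 262 CPM against 226 and 217 CPM.

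Other genes of collagen folding changed less than Serpinh1. Of 30 genes chosen for that role, 25 were tested, of which 12 rose, 7 fell and 6 did not pass, with a median log2 fold change of 0.0351 beside 0.0247 over all genes, of which 42.1% rose and 38.0% fell. The largest increases were those of P3h2, a prolyl 3-hydroxylase (0.133 to 5.66 CPM on average, log2 fold change 4.63), Tmem38b, a cation channel of the endoplasmic reticulum (1.83 to 5.91 CPM, 1.64), and Kdelr3, a retrieval receptor of that compartment (5.96 to 13.7 CPM, 1.19). P3h2 reached the level required for the test only through shPCBP1, so it had to differ. The largest decreases were those of P4ha1 and P4ha2, catalytic subunits of prolyl 4-hydroxylase (-0.71 and -0.45), and Fkbp14, a prolyl isomerase (-0.45).

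Clade B rose in several genes of 1 chromosomal cluster. Serpinb9b, a close relative of Serpinb9, had 3.95 and 3.68 CPM in the control libraries against 146 and 139 CPM in shPCBP1, a log2 fold change of 5.19 ± 0.0477 (SE, limma adjusted p = 8.23e-14). Serpinb9, the inhibitor of granzyme B, stood at 14.9 and 15.2 CPM against 38.4 and 37.3 CPM (1.32 ± 0.0411, limma adjusted p = 2.34e-10). In both genes the groups did not overlap. Serpinb6b stood at 46.5 and 47.6 CPM against 65.8 and 64.7 CPM (0.47 ± 0.0295, limma adjusted p = 6.71e-08). Serpinb6a, which inhibits cathepsin G and related enzymes, stood at 89.8 and 89.7 CPM against 116 and 111 CPM (0.34 ± 0.0278, limma adjusted p = 6.23e-07). These last changes were small, and neither reached 1.5-fold.

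All 13 clade B genes of chromosome 13, between 32842092 and 34002794 of GRCm38, had a higher mean in shPCBP1 than in the controls. Only 4 of them were high enough to be tested, and the share of all genes with a higher mean was not counted. Over all genes, 1105 and 1142 had no reads in the control libraries, against 625 and 663 in the shPCBP1 libraries. Gains from no reads were thus not particular to this cluster. Serpinb9c, Serpinb9e, Serpinb9f and Serpinb9g had no reads in either control library and stood at 0.155, 0.409, 0.190 and 0.509 CPM on average in shPCBP1. These means are 5.67-fold, 14.9-fold, 6.94-fold and 18.6-fold a floor of 3 reads over the control group (0.0274 CPM). Counting error of the shPCBP1 reads (17, 45, 21 and 56 in all) is not allowed for. Serpinb9f and Serpinb9g share 38.6% and 30.9% of their windows with other genes, among them each other, so their separate values are uncertain. Serpinb9d had 1 read in 1 shPCBP1 library. Serpinb1a, Serpinb1b and Serpinb1c, relatives of the inhibitor of neutrophil elastase, averaged 0.019, 0.0178 and 0.0278 CPM in the controls and 0.327, 0.227 and 0.255 CPM in shPCBP1, and Serpinb6c 0.0184 and 0.0631 CPM.

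Of the clade B genes of chromosome 1, all 4 with values in this dataset had a higher mean in shPCBP1. The share of all genes was not counted here either, and neither of the 2 tested passed. Serpinb5 (maspin), known as a tumor suppressor of mammary epithelium, stood at 0.690 and 0.453 CPM against 0.878 and 0.517 CPM (log2 fold change 0.23 ± 0.246, limma adjusted p = 0.400). Serpinb8, an inhibitor of furin-like proteases, stood at 3.77 and 3.02 CPM against 4.14 and 3.57 CPM (0.18 ± 0.129, limma adjusted p = 0.212). For both genes the control and shPCBP1 libraries overlapped, and both passed as higher in shPCBP1 when control library 1 was left out. Serpinb2 (plasminogen activator inhibitor 2) and Serpinb7 had no reads in the controls and averaged 0.163 and 0.10 CPM in shPCBP1, from 18 and 11 reads. These means are 5.94-fold and 3.66-fold the same floor.

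Around Serpinf2, the inhibitor of plasmin, 7 of 15 tested genes of plasminogen activation rose and 8 fell, beside 42.1% higher and 38.0% lower of all genes. Plau, which encodes the activator uPA, rose from 0.00953 to 6.68 CPM on average (log2 fold change 5.96). It reached the level required for the test only through shPCBP1, so it had to differ. Vldlr and Lrp8, which belong to the receptor family that clears protease-serpin complexes, rose by 1.30 and 0.69 on the log2 scale. F2r, the thrombin receptor, fell from 42.1 to 0.726 CPM (-5.68), Plgrkt, a plasminogen receptor, from 12.7 to 5.80 CPM (-1.12), and Lrp1, a clearance receptor, from 52.6 to 39.7 CPM (-0.41).

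The remaining clades were low in the second dataset. Serpinc1 (antithrombin) averaged 0.429 CPM in the controls and 0.343 CPM in shPCBP1, Serpind1 (heparin cofactor II) 0.0272 and 0.00906 CPM, Serpini1 (neuroserpin) 0.319 and 0.364 CPM, and Serping1 (C1 inhibitor) had 1 read in 1 control library. In all, 19 of the 32 members with values in this dataset were below a mean of 0.5 CPM and were not tested.

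Of the serine proteases that serpins can inhibit, 12 were tested, of which 6 rose and 5 fell (median log2 fold change 0.144). These counts and those of the next lists stand beside 42.1% of all genes that rose and 38.0% that fell. Besides Plau, the largest increases were those of Prss23 (0.666 to 18.3 CPM, log2 fold change 4.59) and Htra3 (0.991 to 13.8 CPM, 3.68), and the largest decreases those of the membrane protease Tmprss2 (8.43 to 0.317 CPM, -4.38), Hgfac, the activator of hepatocyte growth factor (6.62 to 1.31 CPM, -2.25), and the complement protease C1s1 (2.54 to 1.16 CPM, -1.07). Of the cysteine proteases, 10 were tested, of which 6 rose and 3 fell (median 0.230). Among them the cathepsin genes Ctsh (0.0455 to 2.65 CPM, 4.24) and Ctsl (35.9 to 74.0 CPM, 1.04) rose, and Ctso, Ctsz and Casp8 fell (-1.29, -0.86 and -0.26). Like Plau, Ctsh reached the level required for the test only through shPCBP1, and Tmprss2 did so only through the controls, so they had to differ. Of the protease inhibitors that are not serpins, 8 were tested, of which 3 rose and 3 fell (median 0.00215). Tfpi, the tissue factor pathway inhibitor, rose from 0.849 to 3.91 CPM (2.08), with Cst3 (0.29) and Timp2 (0.20), while Spint2, an inhibitor of membrane serine proteases, fell from 94.1 to 28.4 CPM (-1.73), with Itih2 (-0.85) and Pebp1 (-0.31). Tested epithelial markers fell in 4 of 5 and rose in 1 (summed level of the 6 with values 2940 and 2990 CPM in the controls, 2770 and 2820 CPM in shPCBP1), all 7 tested mesenchymal markers rose (535 to 556 CPM, then 1320 to 1350 CPM), and leukocyte and endothelial markers summed to no more than 0.341 CPM. Among the mesenchymal markers, Snai2 and Twist2 reached the level required for the test only through shPCBP1. The part of marker shifts in the Serpin results was not tested.

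Summed by clade, the composition of Serpin RNA differed between the control and shPCBP1 libraries. Clade A fell from 109 and 111 CPM in the control libraries to 2.67 and 2.35 CPM in shPCBP1. Clade B came to 160 CPM in both controls and 374 and 359 CPM in shPCBP1, and clade H (Serpinh1 alone) went from under 0.1 CPM to 56.6 and 61.2 CPM. The 32 members summed to 271 and 273 CPM in the controls and to 434 and 423 CPM in shPCBP1. No p value is given for these sums.

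**Figure D2:**
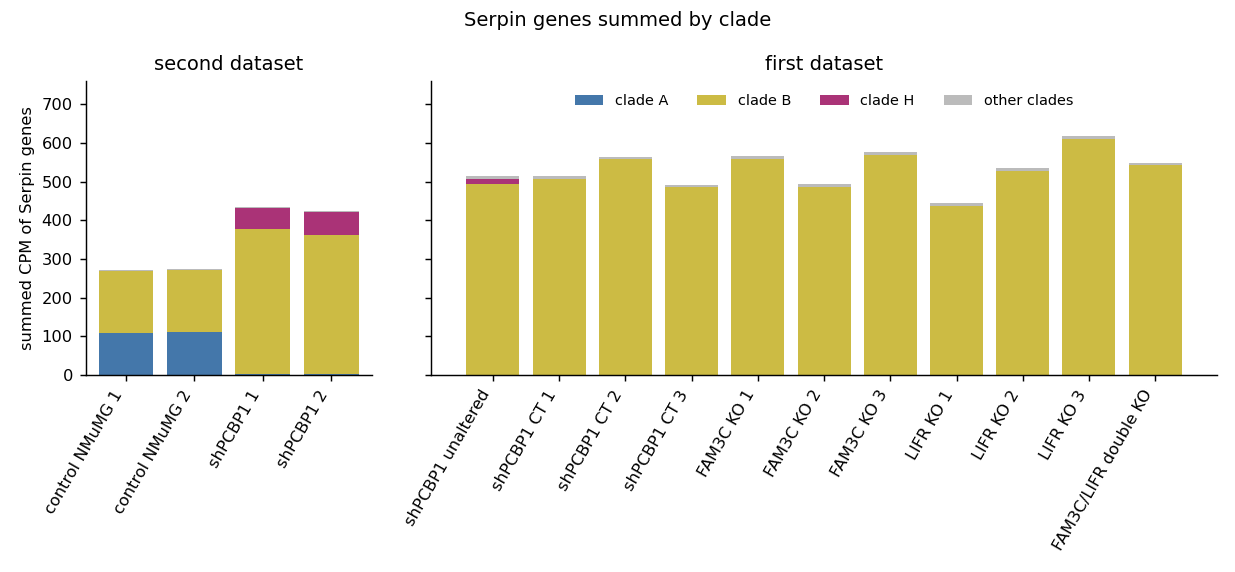
Summed CPM of the Serpin genes in each library, stacked by clade, in the second dataset (left) and the first (right), which were normalised separately and hold different sets of genes. Clade A takes about 109 and 111 CPM in the 2 control libraries and under 3 CPM in the 2 shPCBP1 libraries, and clade B takes 436 to 611 CPM in every line of the first dataset.

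The order of levels was compared per kilobase of exon. In the control libraries it was Serpina1b (20.9 and 21.4 CPM per kb), Serpinb6b (20.5 and 21), Serpinb6a (16.6 in both), Serpina1a (13.7 and 14.6), Serpina1c (13.9 and 14.1), Serpina1d (7.25 and 8.05) and Serpinb9 (4.27 and 4.34), where the ranges of Serpina1b and Serpinb6b overlapped, as did those of Serpina1a and Serpina1c. In shPCBP1 it was Serpinb9b (41.5 and 43.4 CPM per kb), Serpinb6b (28.6 and 29.1), Serpinh1 (23.2 and 25.1), Serpinb6a (20.5 and 21.5) and Serpinb9 (10.7 and 11), with no overlap between neighbours. In the shPCBP1 lines of the first dataset Serpinb6b (mean 42.3 CPM per kb), Serpinb9b (40.7) and Serpinb6a (40.4) overlapped in their ranges, Serpinb9 followed at 14.5, and no other member averaged above 1.21 CPM per kb.

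Whether loss of FAM3C or LIFR in shPCBP1 cells altered Serpin genes was examined in the first dataset, where 12 of 18 members reached a mean of 0.5 CPM. Clade A genes and Serpinf2 had no values there, so the members that fell in the second dataset could not be examined. None of the 12 passed the threshold in FAM3C KO against shPCBP1 (limma adjusted p under 0.07, beside 0.309% of all 12621 genes). None passed in LIFR KO against shPCBP1 (beside 6.47% of all genes), and none in FAM3C KO against LIFR KO (beside 8.28%). Both comparisons with shPCBP1 use the same shPCBP1 lines. The median log2 fold change of the 12 members was 0.0703 in FAM3C KO (-0.0137 over all genes), -0.00526 in LIFR KO (-0.164 over all genes) and 0.375 in FAM3C KO against LIFR KO (0.144 over all genes).

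The 3 FAM3C KO clones lay outside the range of the 4 shPCBP1 lines for 2 of 12 members, Serpinb1b and Serpinb1c, both above it, beside 22.7% of all genes, and Serpinb1b reached the level required for the test only through FAM3C KO. For LIFR KO each of the 12 members overlapped with shPCBP1, beside 17.2% of all genes whose lines did not overlap.

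**Figure D3:**
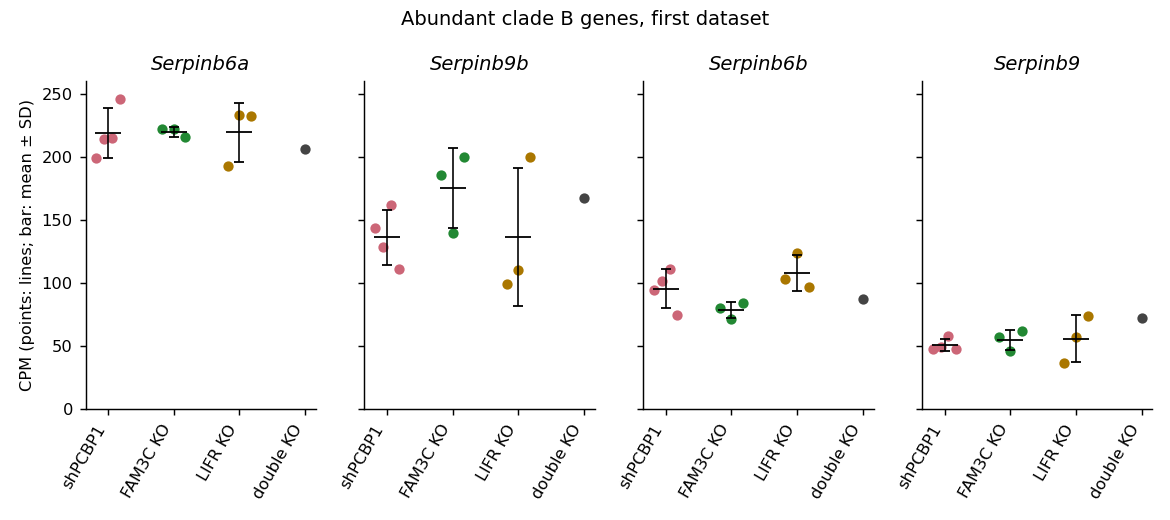
CPM of Serpinb6a, Serpinb9b, Serpinb6b and Serpinb9 in the first dataset, with a point per line and the mean and SD of the 4 shPCBP1, 3 FAM3C KO and 3 LIFR KO lines (the double KO is a single line). All 4 genes overlap between each knockout and shPCBP1, and Serpinb9b ranges from 99.5 to 200 CPM among the LIFR KO clones.

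For Serpinb9b the shPCBP1 lines (unaltered, then CT clones 1 to 3) had 144, 129, 162 and 111 CPM, FAM3C KO clones 186, 139 and 200 CPM, LIFR KO clones 99.5, 110 and 200 CPM and the double KO 167 CPM. For Serpinb9 the same lines had 47.7, 49.5, 58.1 and 47.8 CPM, FAM3C KO clones 57.3, 45.8 and 61.8 CPM, LIFR KO clones 36.6, 57.3 and 73.8 CPM and the double KO 72.7 CPM. LIFR KO clone 1 was the lowest line and LIFR KO clone 3 at or near the highest for both genes. Their log2 fold changes were 0.36 ± 0.236 and 0.11 ± 0.208 in FAM3C KO, -0.06 ± 0.236 and 0.09 ± 0.208 in LIFR KO, and 0.41 ± 0.252 and 0.02 ± 0.223 in FAM3C KO against LIFR KO, with limma adjusted p from 0.278 to 0.956. Without LIFR KO clone 1, Serpinb9 and Serpinb1c passed in LIFR KO against shPCBP1 (log2 fold changes of 0.36 and 1.12), where 57.4% of all genes passed. Without clone 3 Serpinb9b passed in FAM3C KO against LIFR KO (0.72), where 11.6% of all genes passed.

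Serpinb6a was the steadiest of the abundant members, at 199, 214, 215 and 246 CPM in the shPCBP1 lines, 222, 222 and 215 CPM in FAM3C KO, 192, 233 and 232 CPM in LIFR KO and 206 CPM in the double KO. Its log2 fold changes of 0.01 ± 0.104 in FAM3C KO and 0.00 ± 0.104 in LIFR KO, and of 0.01 ± 0.111 between them, had limma adjusted p of 0.958 to 0.989. Serpinb6b stood at 94.4, 102, 111 and 74.6 CPM in shPCBP1, 79.9, 71.8 and 83.9 CPM in FAM3C KO, 103, 124 and 96.7 CPM in LIFR KO and 87.0 CPM in the double KO. Its log2 fold changes were -0.27 ± 0.144 in FAM3C KO (limma adjusted p = 0.581), 0.18 ± 0.144 in LIFR KO (limma adjusted p = 0.367) and -0.45 ± 0.154 in FAM3C KO against LIFR KO (limma adjusted p = 0.0975). Each FAM3C KO clone was below each LIFR KO clone for this gene, and above each of them for Serpinb1b and Serpinf1, which makes 3 of 12 members without overlap, beside 22.8% of all genes. Without LIFR KO clone 1 that difference passed (-0.48), as did those of Serpinb1b (1.13) and Serpini1 (-1.20), beside 52.9% of all genes.

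Serpinh1 differed among the shPCBP1 lines themselves. The unaltered line had 11.6 CPM, whereas CT clones 1 and 2 had no reads (0.0213 and 0.0404 CPM are the values given to no reads in those libraries) and CT clone 3 stood at 0.137 CPM. FAM3C KO clones had 0.266, 0.0400 and 0.115 CPM, where the second value is that of no reads, and the 3 LIFR KO clones and the double KO had no reads. The gene therefore reached the level required for the test only through the unaltered line, and log2 fold changes of -1.07 ± 1.35 in FAM3C KO and -1.68 ± 1.35 in LIFR KO (limma adjusted p = 0.896 and 0.374) rest on that line. Between the knockouts it was 0.61 ± 1.44 (limma adjusted p = 0.786). Map6 did not follow this pattern, with 18.8, 15.6, 27.4 and 24.7 CPM in the unaltered line and the CT clones, and 3.54 to 14.9 CPM in the knockout clones. Both datasets were normalised separately, so the 56.6 and 61.2 CPM of the shPCBP1 libraries in the second dataset stand beside these values without a test.

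**Figure D4:**
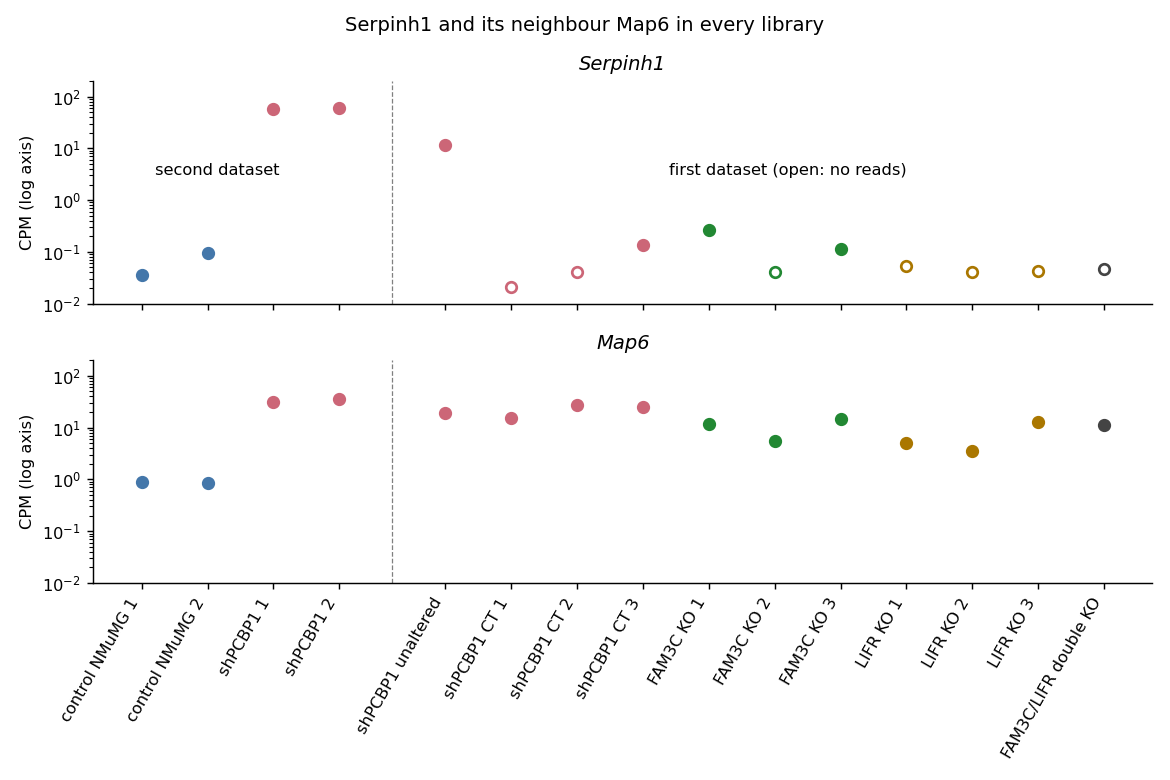
CPM of Serpinh1 (top) and of its neighbour Map6 (bottom) in every library on a log axis, the second dataset left of the dashed line and the first right of it, where open circles mark the value that stands for no reads. Serpinh1 is above 10 CPM in the 2 shPCBP1 libraries of the second dataset and in the unaltered line of the first and below 0.3 CPM elsewhere, whereas Map6 is above 3 CPM in all libraries but the 2 controls.

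Serpinb1b and Serpinb1c were low members, where counting error adds to differences between clones. Serpinb1b measured 0.312, 0.384, 0.364 and 0.550 CPM in the shPCBP1 lines against 0.753, 1.08 and 0.845 CPM in FAM3C KO (log2 fold change 0.99 ± 0.349, limma adjusted p = 0.333), and at 0.208 to 0.557 CPM in LIFR KO. Serpinb1c measured 0.749, 0.490, 0.525 and 0.378 CPM in shPCBP1 against 1.15, 1.12 and 1.31 CPM in FAM3C KO (1.05 ± 0.371, limma adjusted p = 0.334), and at 0.483, 0.957 and 1.63 CPM in LIFR KO. Both were above the shPCBP1 range in FAM3C KO at about 1 CPM. Serpinb1c passed in FAM3C KO when that group and shPCBP1 were fitted alone (limma adjusted p = 0.0618), where 8.29% of all genes passed.

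Serpinb8 measured 5.24, 6.95, 6.83 and 3.09 CPM in shPCBP1 against 7.57, 3.16 and 4.42 CPM in FAM3C KO, whereas the LIFR KO clones had 1.88, 0.125 and 5.06 CPM. The value of LIFR KO clone 2 lay far below all other lines, and the group difference did not pass (log2 fold change -2.03 ± 0.843, limma adjusted p = 0.121). That difference passed without LIFR KO clone 3 (-3.01, limma adjusted p = 0.0504, beside 5.72% of all genes). So did the difference from FAM3C KO (2.86, limma adjusted p = 0.0458, beside 11.6% of all genes). Serpinc1 stood at 3.31 to 4.11 CPM in shPCBP1, 3.41 to 4.20 CPM in FAM3C KO and 3.71 to 5.09 CPM in LIFR KO. More than 50% of its windows also belong to the overlapping Zbtb37 (57.9%), so its reads cannot be told from those of that gene. Serpind1, Serpinf1 and Serpini1 lay between 0.515 and 2.91 CPM in all lines, with overlapping knockout and shPCBP1 groups.

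**Figure D5:**
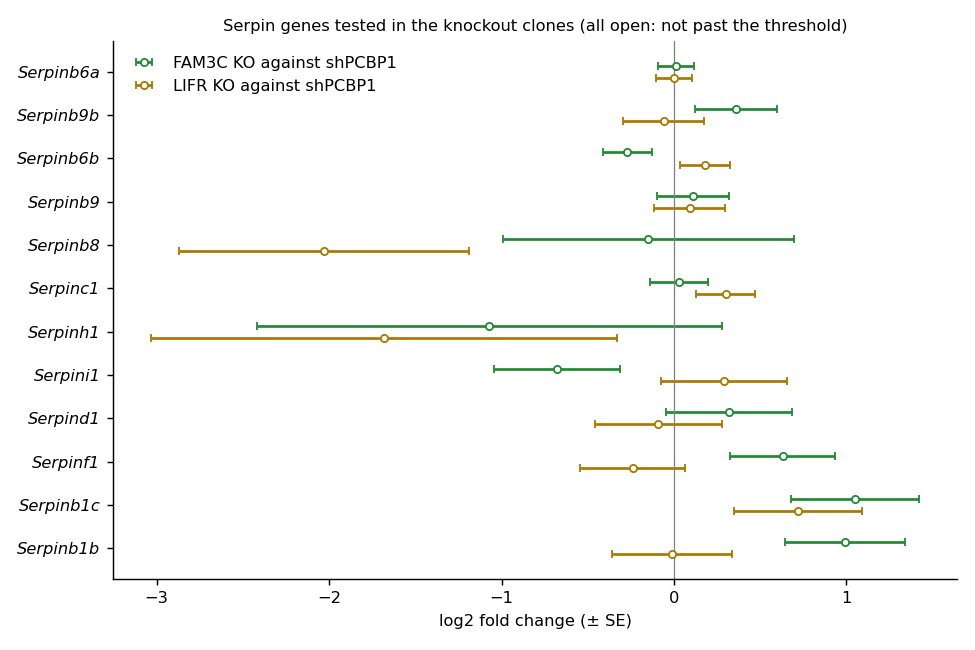
Log2 fold change with its standard error for the 12 Serpin genes tested in the first dataset, in FAM3C KO and in LIFR KO against shPCBP1, ordered by mean CPM in shPCBP1. All symbols are open because none passed the threshold, and the widest bars belong to Serpinh1 and Serpinb8, for which a single line stood far from the others.

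The 6 members of the first dataset that were not tested stayed under 2 CPM in every line. Serpinb11, a serpin of skin-type epithelia, stood at 0.103 to 1.29 CPM in shPCBP1, 0.0400 to 0.177 CPM in FAM3C KO and 0.0416 to 0.107 CPM in LIFR KO, and Serpinb7 at 0.103 to 1.88, 0.0800 to 0.266 and 0.0416 to 0.697 CPM. For both genes CT clone 3 was the lowest shPCBP1 line and fell within the knockout ranges. Serpinb1a, Serpinb2, Serpinb6c and Serpinb9g lay between 0.0416 and 0.893 CPM. They overlapped between each knockout and shPCBP1, except Serpinb1a in LIFR KO (0.250 to 0.386 CPM against 0.404 to 0.893 CPM).

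Of the related lists in the knockout comparisons, none had a gene past the threshold in FAM3C KO. In LIFR KO, 3 of 14 tested genes of plasminogen activation fell (Lrp1 by 1.28, Itgb5 by 0.95 and Anxa2, a plasminogen-binding annexin, by 0.47 on the log2 scale). So did 2 of 13 cysteine proteases (Ctsh, -1.35, and Ctsb, -0.40) and 2 of 12 other inhibitors (Cst3, -0.70, and Timp2, -0.57). A fall passed for 1 of 27 collagen folding genes (P4ha2, -1.54) and for none of 12 serine proteases. Over all genes 6.47% passed in either direction, and 701 of these 816 genes fell. In FAM3C KO against LIFR KO, Itgb5, Lrp1, Lgmn, Hgfac, Colgalt1 and P4ha2 were higher in FAM3C KO (log2 fold changes 0.99, 1.08, 0.82, 1.93, 0.51 and 1.08). Plgrkt, Tfpi and Colgalt2 were lower (-0.78, -3.05 and -1.79). The lists held the same 14, 13, 12, 27 and 12 tested genes. Over all genes 8.28% passed in either direction, and 862 of these 1045 genes were higher in FAM3C KO. Epithelial markers summed to 2470 to 3170 CPM in shPCBP1, 2000 to 3030 CPM in FAM3C KO and 1210 to 2100 CPM in LIFR KO. Mesenchymal markers summed to 1800 to 2040, 2080 to 2240 and 1300 to 1940 CPM in the same groups. Of the markers tested in LIFR KO against shPCBP1, 1 of 5 epithelial passed, as lower (Krt18, -0.72), and none of 8 mesenchymal. LIFR KO also holds the 2 clones that stood apart in GC content. With a correction for GC content no Serpin gene passed in any knockout comparison, beside 2.0%, 0.301% and 0.634% of all genes in FAM3C KO, in LIFR KO and between them.

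Clade B summed to 485 to 557 CPM over the 4 shPCBP1 lines, 486 to 569 CPM over FAM3C KO, 436, 527 and 611 CPM for the LIFR KO clones and 542 CPM for the double KO. The LIFR KO clones spread below and above the shPCBP1 range, whereas the double KO lay within it.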

How the data were processed

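RNA-Seq libraries (rRNA-depleted, directional, paired-end) were trimmed, aligned with Bowtie2 to GRCm38 (mm10) and quantified in Partek Flow, and compared with DESeq, per the study's methods and the submitters' processing notes. The authors deposited normalised CPM per gene and library. A gene without reads carries a small value: the minimum of its library in the first dataset, and 0.0001 CPM in the second. The deposited mean CPM per group and ratio of means (fold change) of the second dataset were not used.

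Low values fell within 0.1 of a whole read in shares of 0.9 to 0.944, which is short of what recovering reads needs. A count test was therefore left out. Values were transformed to log2(CPM + 0.1), a scale that understates changes of low genes, and limma 3.58.1 (R 4.3.3) was run on genes averaging 0.5 CPM or more (mean-variance trend, Benjamini-Hochberg over all genes tested, threshold 0.07). The 3 groups of the first dataset shared 1 fit, without the double KO, which is a single line. The fits were tested on simulated data.

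Members were taken by symbol. A gene that the rule takes in is not reported here, and it is left out of the members' counts, sums and medians but not of the fits. The members and the related gene lists were chosen with earlier results of these data known. Statistics are given for members past the threshold that changed 2-fold or more and reached 1 CPM in a group of the second dataset, or past it in a knockout comparison, or with a mean of at least 20 CPM in a group. Other members given with values were chosen after their values were seen. Of the related lists, the genes past the threshold in a knockout comparison and up to 3 up and 3 down with the largest change in the second dataset were named. Most gene starts of the second dataset equal those of GENCODE M21 (GRCm38), but most of the first dataset do not, so coordinates, exon lengths and shared 150-base windows came from GENCODE M21. Reads without molecular identifiers are not independent molecules, and the floor of 3 reads covers counting error of the control group only. Alternatives were other scalings, filters, pseudocounts and thresholds, leaving out each library and a replicate block, and, chosen after seeing the data, a GC content correction (loess, span 0.3) and subtraction of the lowest value. Figures were drawn with matplotlib 3.10.9.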

Additional observations from a re-analysis of the deposited data

Results flagged for a closer look

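Among the 18 members of the first dataset, the 4 shPCBP1 lines were searched for a line far from the others by Dixon's criterion, which chance meets in about 1 of 20 groups. It was met by 2 genes: Serpinh1, at 11.6 CPM in the unaltered line against at most 0.137 CPM in the CT clones, and Serpinb1a, at 0.893 CPM in CT clone 3 against at most 0.437 CPM in the other lines.

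The FAM3C/LIFR double KO, a single line outside the fits, was above the highest shPCBP1 line for 6 of the 18 members, beside 25.4% of all 13893 genes. Serpinb9 stood at 72.7 CPM (highest shPCBP1 line 58.1 CPM), Serpinb9b at 167 CPM (162 CPM), Serpinb1b at 1.22 CPM (0.550 CPM), Serpinb1c at 0.843 CPM (0.749 CPM), Serpinb6c at 0.656 CPM (0.566 CPM) and Serpinb2 at 0.328 CPM (0.323 CPM). These are values of 1 line with no replicate check, and the line is also among those that stood apart in GC content.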

How the results depend on the processing

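The count of Serpin genes called in shPCBP1 against control NMuMG was 11, and 9 to 13 under 12 of 13 alternatives (11 to 13 with a library left out, where Serpinb5 and Serpinb8 passed without control library 1). With no filter on low values it was 22 of 32, since more genes were tested (67.7% of all genes passed). All 11 named genes kept their direction, and Serpinb6b (0.47) and Serpinb6a (0.34) no longer passed when a fold change of 1.5 was required. In the knockout comparisons the count of 0 became 1 in FAM3C KO with 2 groups fitted alone (beside 8.29% of all genes), and 0 to 2 in LIFR KO and 0 to 3 in FAM3C KO against LIFR KO when each line was left out in turn (LIFR KO clones 1 and 3 gave the calls, and without clone 1 57.4% and 52.9% of all genes passed, and without clone 3 5.72% and 11.6%). The replicate block gave 11 calls in the second dataset, beside 81.1% of all genes. It gave 0 in each knockout comparison, beside 0.119% of all genes in FAM3C KO, 0.0792% in LIFR KO and 0.0% between them. Same-numbered libraries correlated at -0.189 to 0.154 in their deviations from group means, so the numbers were not taken to pair them.

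Of genes that did not pass, some changed sign, and the cause was not tested. In FAM3C KO, Serpinb6a was -0.03 with the replicate block and with the GC content correction and -0.03 to 0.07 with a line left out. Serpinh1 was 0.48 with the replicate block. In the first dataset that block gives the unaltered line a term of its own, so the CT clones alone stand for shPCBP1. In LIFR KO, Serpinb6a was -0.04 with the replicate block, -0.33 with the GC content correction and -0.18 with clone 1 as the only LIFR KO library (-0.04 to 0.09 with a line left out). Serpinb9 was -0.15 with the GC content correction and -0.46 with clone 1 alone (-0.14 to 0.36), and Serpinb9b 0.09 with median-ratio rescaling (-0.37 to 0.13). In FAM3C KO against LIFR KO, median-ratio rescaling gave -0.12 for Serpinb6a and -0.11 for Serpinb9, and quantile normalization -0.01 for Serpinb6a and -0.09 for Serpinb9. With a line left out Serpinb6a ranged over -0.08 to 0.06 and Serpinb9 over -0.25 to 0.25. Depth limits the members with few reads, among them Serpinh1 in the first dataset.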
